A study of Homo sapiens with 20 samples.

Results

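The keratin genes were followed across 5 groups of arrays from a human mammary epithelial line carrying an inducible p53 transgene. A gene counted as a keratin when its symbol in the platform's probe-to-gene table was KRT, a number and at most 1 letter, and each gene was read from its brightest transcript cluster (the array's unit of probes for a gene) that carried a single symbol. The rule found 48 keratins among 18417 named genes. Of these, 3 belonged to the basal class (KRT5, KRT14, KRT15), 1 to the activation class of wounded or proliferating epithelium (KRT16), 5 to the luminal or simple-epithelium class (KRT7, KRT8, KRT18, KRT19, KRT20), 13 to the differentiation class of stratified epithelium, 23 to the class of hair shaft and root sheath, and 3 to none of these. KRT17, KRT6A, KRT6B, KRT6C, KRT81, KRT82 and KRT86 had no cluster with a single symbol and were not analysed here.

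The cells were the immortalized B5/589 line, grown in serum with epidermal growth factor, and all 20 arrays came from cells with the transgene, including the uninduced ones. Doxycycline was added at 0, 3 or 5 ng (no volume is given), and RNA was taken at 24 h for all 3 doses and at 12 h for 3 and 5 ng, with 4 arrays in each group. The study asked how lower and higher levels of p53, a transcription factor that can halt or kill damaged cells, differ in the response they give. The labels do not say what drives the transgene beyond its induction or whether the line is 1 clone. Nor do they tell if replicate arrays were separate cultures, so p-values measure the spread between these arrays, which may be technical.

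Keratins are the intermediate filament proteins of epithelial cells, and a filament is built from pairs of an acidic type I and a basic type II chain. KRT5 and KRT14 form the pair of basal cells in stratified epithelium and of the basal, myoepithelial layer of the breast, whereas KRT8 and KRT18 form the pair of simple epithelium and of luminal breast cells, together with KRT7 and KRT19. Stratified epithelium that leaves the basal layer changes to other pairs such as KRT1 and KRT10, and the hair follicle uses a large set of its own. Nearly all type I genes lie in a cluster on chromosome 17, and the type II genes lie with KRT18 in a cluster on chromosome 12.

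Signals were log2 values as deposited. The medians of single arrays ran from 4.54 to 5.54, and the mean of the array medians was 5.07 at 0 ng and 4.80 at 5 ng for 24 h. The median gene was therefore 0.24 lower at 5 ng than at 0 ng as deposited and 0.07 higher after quantile normalization, which forces all arrays to 1 distribution, so values after quantile normalization are given beside the deposited ones for the main results. Differences are log2 differences with the standard error of the model. A gene was called when limma's p, adjusted over all 18417 genes by the Benjamini-Hochberg method, was under 0.05. Among the keratins, 18 of 48 lay in the dimmest 30% of genes (12 of them hair keratins), and 6 lay above the 90th percentile of mean signal: KRT5, KRT7, KRT8, KRT14, KRT15 and KRT18. The epithelial marker EPCAM lay at the 98.3rd percentile, the mesenchymal filament gene VIM at the 15.3rd and the mesenchymal cadherin CDH2 at the 80.9th. In the dimmest 30% were 2 of 7 luminal markers, 2 of 7 mesenchymal markers and 5 of 6 measured immune and endothelial markers. As a check of the induction, CDKN1A, a target gene of p53, was higher by 0.72 at 3 ng and 1.43 at 5 ng for 24 h (limma adjusted p = 0.000948 and 1.01e-07).

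At 24 h, 7 keratins were called higher and 1 lower at 5 ng against 0 ng. The 7 were the hair keratins KRT34 and KRT33A, all 3 basal keratins, the activation keratin KRT16 and the luminal keratin KRT8, and KRT80 of the differentiation class fell. Over all genes 4.52% were called higher and 23.5% lower in this comparison, so 14.6% of the keratins against 4.52% of genes were higher and 2.08% against 23.5% were lower. After quantile normalization 14 keratins were higher and 1 lower, where 20.6% of all genes were higher and 17.2% lower. The median keratin differed by -0.10 as deposited and 0.18 after quantile normalization, beside -0.24 and 0.07 for all genes. At 3 ng against 0 ng, as deposited, KRT34 was the 1 keratin called higher and KRT80 the 1 called lower, where 1.50% of all genes were higher and 23.0% lower. After quantile normalization the 3 ng count was 13 higher and 1 lower, against 15.4% and 12.5% of genes. The comparisons of 3 ng and 5 ng share the 0 ng arrays. By class, the median at 5 ng was 0.66 for the basal keratins, 0.23 for the luminal, -0.11 for the hair and -0.16 for the differentiation keratins. On the quantile scale these medians were 0.84, 0.34, 0.16 and 0.12.

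**Figure D1:**
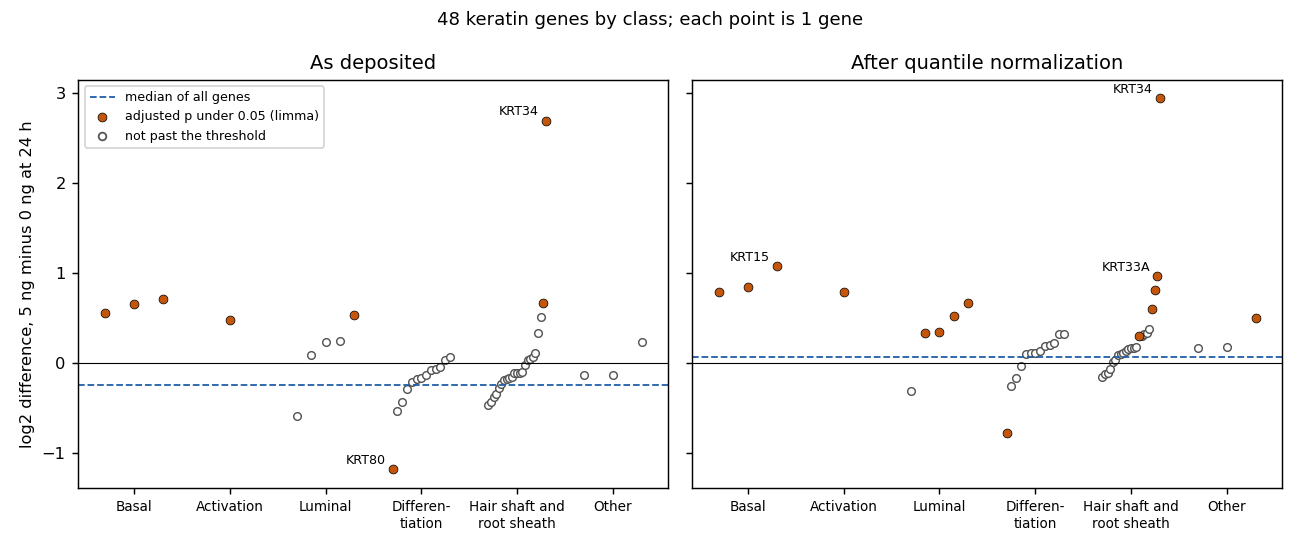
Log2 difference of each of the 48 keratins at 24 h, 5 ng minus 0 ng, grouped by class, as deposited (left) and after quantile normalization (right). Filled points passed an adjusted p of 0.05 in limma, open points did not, and the dashed line is the median of all genes (-0.24 and 0.07). KRT34 lies highest at 2.70 and KRT80 lowest at -1.18 as deposited.

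KRT34, a type I keratin of the hair shaft, had the largest difference of any keratin. Its signal on the 4 arrays at 0 ng was 5.71, 5.51, 5.07 and 5.93. At 3 ng for 24 h it was 6.96, 7.16, 7.17 and 7.27, and at 5 ng for 24 h it was 8.02, 8.23, 8.05 and 8.70. The 3 groups did not overlap, with the 5 ng arrays all above the 3 ng arrays and these all above the uninduced ones. KRT34 was 3.00-fold higher at 3 ng than at 0 ng (log2 difference 1.58, SE 0.25, limma adjusted p = 0.000107) and 6.48-fold higher at 5 ng (2.70, SE 0.25, adjusted p = 4.31e-08). Between 5 and 3 ng it differed by 1.11 (SE 0.25, limma adjusted p = 0.0159). It was the only keratin called in that comparison, where 1.79% of all genes were higher and 0.755% lower. That call was lost without array 1 of 3 ng (1.05, adjusted p = 0.0571) and without array 4 of 5 ng (0.96, adjusted p = 0.0825).

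The nearest neighbours of KRT34 on chromosome 17 are the hair keratins KRT33B and KRT33A on 1 side and KRT31 on the other, all type I genes on the same strand. As deposited at 24 h, KRT34 was called against 0 ng at both doses, and none of these neighbours was. No test compared the responses of these genes with one another. The 100 bases before the start of each gene are shown as a description. They come from RefSeq (GRCh38.p14, minus strand, written 5′ to 3′), with the letters TATAAA in capitals. The regions are chr17:41382307-41382406 for KRT34, chr17:41369814-41369913 for KRT33B, chr17:41350829-41350928 for KRT33A and chr17:41397609-41397708 for KRT31.
KRT34: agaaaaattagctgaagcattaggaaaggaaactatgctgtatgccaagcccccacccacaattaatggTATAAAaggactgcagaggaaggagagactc
KRT33B: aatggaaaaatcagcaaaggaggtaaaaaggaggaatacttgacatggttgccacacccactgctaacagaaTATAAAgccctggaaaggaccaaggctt
KRT33A: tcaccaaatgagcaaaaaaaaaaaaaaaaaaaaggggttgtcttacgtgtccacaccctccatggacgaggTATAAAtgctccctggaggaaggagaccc
KRT31: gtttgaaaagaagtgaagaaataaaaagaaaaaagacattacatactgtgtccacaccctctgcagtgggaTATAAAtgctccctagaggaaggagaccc

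All 4 windows held TATAAA, starting 31 bases before the start in KRT34, 28 in KRT33B, and 29 in both KRT33A and KRT31. The same 6 letters, searched on both strands of the 250 bases before the start, stood in 19 of the 33 keratins with a promoter in the RefSeq table (57.6%) and in 10.7% of all 35116 promoters. Position by position, the last 40 bases of KRT34 matched 20 bases of KRT31, 18 of KRT33A and 11 of KRT33B. Over all 100 bases the order changed, with 47 matches for KRT33A, 37 for KRT31 and 29 for KRT33B. No gaps were allowed in these counts, although TATAAA does not start at the same position in KRT34 as in its neighbours. The letters are a description of these windows only.

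KRT33A is a hair shaft keratin closely related to KRT33B, and the values of this pair are uncertain where probes could not tell the copies apart. The signal of KRT33A at 0 ng was 5.97, 5.72, 5.96 and 6.08, at 3 ng for 24 h it was 5.80, 6.24, 6.14 and 5.93, and at 5 ng for 24 h it was 6.57, 6.61, 6.01 and 7.21. Of the 5 ng arrays 3 lay above all arrays of 0 and 3 ng at 24 h, and 1, at 6.01, lay among the uninduced ones. KRT33A rose by 0.67 at 5 ng against 0 ng (SE 0.23, limma adjusted p = 0.0327) and differed by 0.10 at 3 ng (adjusted p = 0.846). The call at 5 ng was lost under 6 of 16 alternatives, with a value of 0.46 (adjusted p = 0.134) without array 4 of 5 ng.

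KRT33B, which lies between KRT33A and KRT34, did not pass the test as deposited. Its values at 5 ng for 24 h were 6.06, 5.08, 5.96 and 6.17, against 5.25, 4.94, 5.48 and 5.54 at 0 ng, and the difference was 0.52 (SE 0.30, limma adjusted p = 0.238). After quantile normalization it was 0.81 and passed (adjusted p = 0.00611). At 3 ng KRT33B differed by 0.44 as deposited (limma adjusted p = 0.347) and by 0.69 after quantile normalization (adjusted p = 0.0238). KRT31 on the other side of KRT34 differed by -0.11 (adjusted p = 0.846), or 0.16 after quantile normalization (adjusted p = 0.609), and lay in the dimmest 30% of genes. KRT33B and KRT31 were singled out for their position after their values had been seen.

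**Figure D2:**
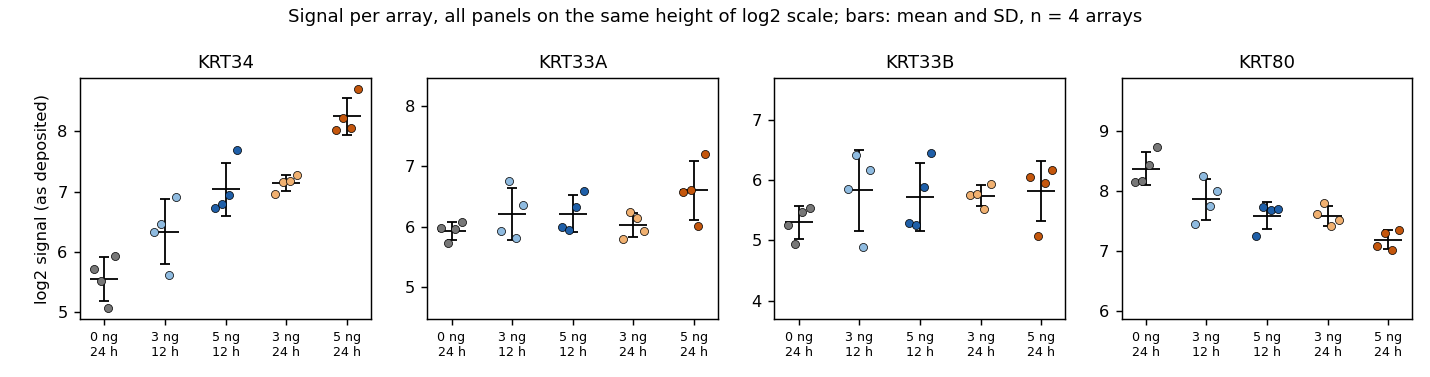
Log2 signal as deposited of KRT34, KRT33A, KRT33B and KRT80 in the 5 groups. Each point is 1 array, and the bars are the mean and SD of 4 arrays. KRT34 rises from a mean of 5.55 at 0 ng to 8.25 at 5 ng for 24 h with no overlap of the 24 h groups, and KRT80 falls from 8.37 to 7.18.

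Of the other 20 hair and root sheath keratins, none was called at 5 ng as deposited. Their differences ran from -0.47 (KRT25, a root sheath keratin) to 0.34 (KRT35, a hair shaft keratin), both short of the threshold (limma adjusted p = 0.275 and 0.355). After quantile normalization KRT35 (0.60) and KRT85 (0.30) passed besides KRT34, KRT33A and KRT33B, which made 5 of 23 hair keratins higher (21.7%), near the 20.6% of all genes. At 3 ng on that scale KRT34, KRT33B, KRT35 (0.45) and KRT85 (0.36) were higher, or 17.4% of hair keratins beside 15.4% of all genes.

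KRT5, the type II chain of basal cells, had signals of 11.70, 11.64, 11.64 and 12.00 at 0 ng. At 3 ng for 24 h they were 11.99, 11.89, 12.01 and 11.75, and at 5 ng for 24 h 12.28, 12.48, 12.49 and 12.37. The 5 ng arrays lay above all of these, whereas the 3 ng and uninduced arrays overlapped. KRT5 rose 1.58-fold at 5 ng against 0 ng (0.66, SE 0.13, limma adjusted p = 0.000688) and differed by 0.16 at 3 ng (SE 0.13, adjusted p = 0.445). Between 5 and 3 ng its difference of 0.50 just missed the threshold as deposited (SE 0.13, limma adjusted p = 0.0509) and passed after quantile normalization (0.33, adjusted p = 0.000945).

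KRT14, the type I partner of KRT5, followed it closely. Its signals were 11.28, 10.98, 11.14 and 11.34 at 0 ng, 11.47, 11.31, 11.40 and 11.14 at 3 ng for 24 h, and 11.66, 11.79, 11.79 and 11.73 at 5 ng for 24 h. The 5 ng arrays again lay above all arrays of the lower doses at 24 h. KRT14 rose 1.47-fold at 5 ng (0.56, SE 0.12, limma adjusted p = 0.00125) and differed by 0.14 at 3 ng (SE 0.12, adjusted p = 0.461). Within an array, the difference between KRT5 and KRT14 moved by 0.10 on average at 5 ng relative to 0 ng (range 0.06 to 0.14), and the uninduced arrays themselves ranged from -0.14 to 0.10. After quantile normalization that mean was 0.06.

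KRT15, a type I keratin of basal cells without a fixed type II partner, varied more between arrays. It gave 9.15, 8.39, 8.37 and 9.07 at 0 ng, and 9.72, 9.37, 9.20 and 9.56 at 5 ng for 24 h. These groups did not overlap, but as deposited the uninduced arrays fell into a higher and a lower pair. After quantile normalization the uninduced arrays read 8.838, 8.232, 8.315 and 8.508, and no such pairs stood apart. KRT15 rose by 0.72 (SE 0.21, limma adjusted p = 0.0132), and the call was lost without array 2 of 0 ng (0.60, adjusted p = 0.0524). At 3 ng, where the arrays read 9.63, 9.14, 8.90 and 8.95, the difference of 0.41 was not called (adjusted p = 0.176). On the quantile scale all 3 basal keratins were also higher at 3 ng, by 0.51 for KRT5, 0.52 for KRT14 and 0.87 for KRT15 (adjusted p = 2.73e-06, 0.000158 and 0.000713).

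KRT16, which epidermis makes on wounding and in hyperproliferation, was read at 6.09, 5.79, 5.81 and 6.17 at 0 ng and at 6.37, 6.24, 6.67 and 6.51 at 5 ng for 24 h. The groups lay just apart. Its rise of 0.48 (SE 0.15, limma adjusted p = 0.0188) was lost without array 2 or 3 of 0 ng or array 3 of 5 ng (adjusted p = 0.0612, 0.0523 and 0.0786). At 3 ng the difference was 0.17 (adjusted p = 0.488) as deposited and 0.48 after quantile normalization (adjusted p = 0.000887).

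Of the 5 luminal keratins only KRT8, the type II chain of simple epithelium, was called as deposited. It gave 12.39, 12.28, 12.33 and 12.66 at 0 ng, 12.69, 12.63, 12.56 and 12.44 at 3 ng for 24 h, and 12.82, 13.05, 13.00 and 12.92 at 5 ng for 24 h. The 5 ng arrays lay above the other 8. KRT8 rose 1.45-fold at 5 ng (0.53, SE 0.12, limma adjusted p = 0.00219) and differed by 0.16 at 3 ng (adjusted p = 0.396). After quantile normalization it was higher at 3 ng too (0.45, limma adjusted p = 1.2e-05).

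KRT18, the type I partner of KRT8, had signals of 12.73, 12.65, 12.46 and 12.91 at 0 ng and of 12.82, 13.07, 12.97 and 12.82 at 5 ng for 24 h. These groups overlapped, and the difference of 0.23 did not pass as deposited (SE 0.14, limma adjusted p = 0.249) but did after quantile normalization (0.34, adjusted p = 0.000173). A dimmer cluster of KRT18 gave 0.20. At 3 ng KRT18 differed by -0.01 as deposited and by 0.26 after quantile normalization, a change of sign that also put it past the threshold (adjusted p = 0.00316). Within an array, KRT8 gained on KRT18 by 0.30 on average at 5 ng relative to 0 ng (range 0.25 to 0.37), whereas the uninduced arrays ranged from -0.10 to 0.14. After quantile normalization the mean was 0.33.

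KRT7, a type II keratin of glandular epithelium, gave 11.30, 11.22, 11.30 and 11.58 at 0 ng and 11.26, 11.54, 11.49 and 11.47 at 5 ng for 24 h. These overlapped, with a difference of 0.09 as deposited (adjusted p = 0.661) and 0.34 after quantile normalization (adjusted p = 0.000661). At 3 ng for 24 h, KRT7 differed by -0.09 as deposited (limma adjusted p = 0.714) and by 0.29 after quantile normalization, which was called (adjusted p = 0.00355). KRT19, a type I luminal keratin without a fixed partner, differed by 0.25 at 5 ng (adjusted p = 0.389) and by 0.53 after quantile normalization (adjusted p = 0.000196). At 3 ng KRT19 differed by 0.05 (limma adjusted p = 0.902) and by 0.29 after quantile normalization (adjusted p = 0.0285). KRT20, a keratin of gut and bladder lining that lay in the dimmest 30%, differed by -0.59 as deposited (adjusted p = 0.0508) and -0.31 after quantile normalization, where it was not called either. As deposited its 5 ng arrays, at 2.77, 2.24, 2.66 and 2.43, all lay below the uninduced ones, at 2.86, 3.04, 3.29 and 3.28. After quantile normalization the groups overlapped, with 2.832, 2.839, 2.839 and 2.35 at 5 ng and a lowest uninduced array at 2.766.

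**Figure D3:**
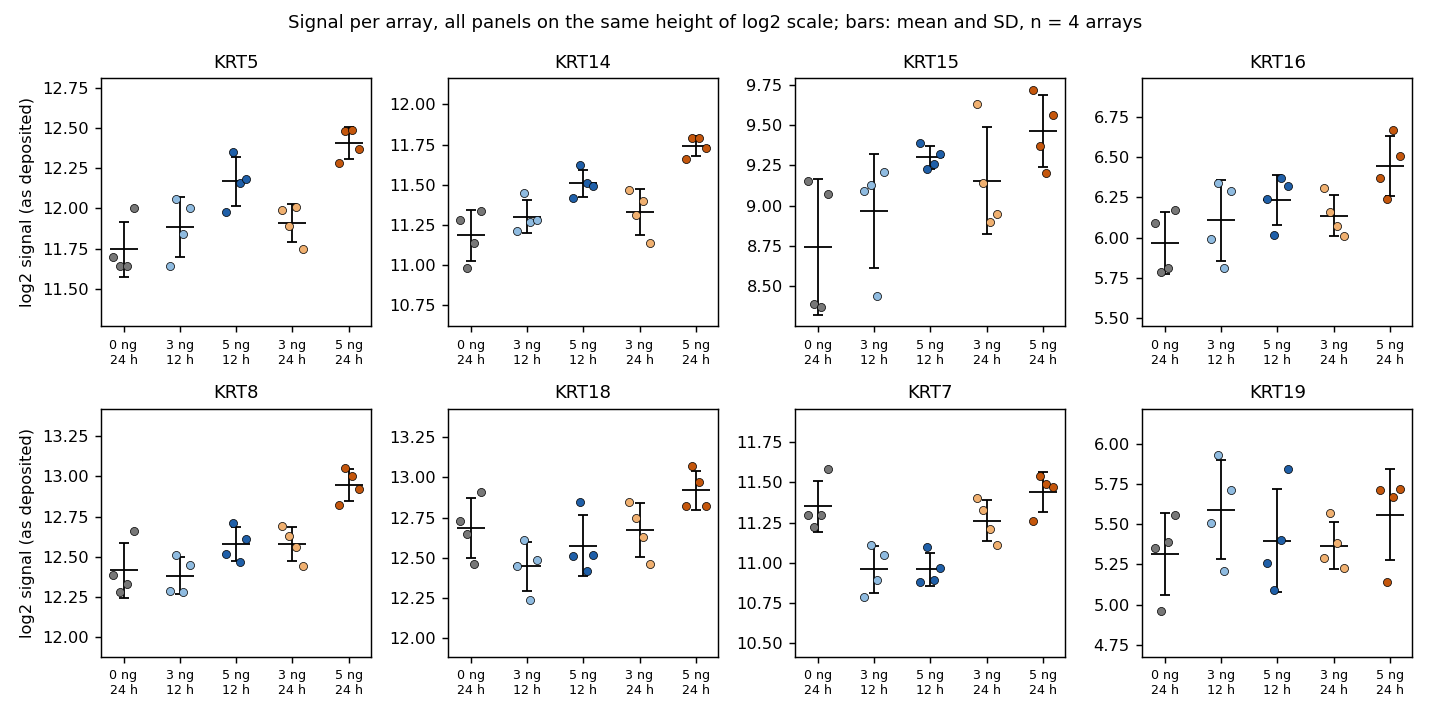
Log2 signal as deposited of 8 keratins in the 5 groups: the basal KRT5, KRT14 and KRT15, the activation keratin KRT16, and the luminal KRT8, KRT18, KRT7 and KRT19. Each point is 1 array, and bars are the mean and SD of 4 arrays. In KRT5, KRT14 and KRT8 all 4 arrays of 5 ng at 24 h lie above all arrays of 0 and 3 ng at 24 h, and KRT7 is lowest at 12 h with a mean of 10.96 at both doses.

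A difference between keratins on the same array is not moved by a shift of that whole array, though quantile normalization does change it. Basal and luminal keratins were therefore also set against each other within arrays, as a description without a test. The log2 difference between KRT5 and KRT7, expressed relative to its mean at 0 ng, ranged from -0.06 to 0.03 on the uninduced arrays. It was 0.53 at 3 ng and 0.81 at 5 ng for 12 h, and 0.25 at 3 ng and 0.57 at 5 ng for 24 h (means of 4 arrays, SD 0.05, 0.08, 0.11 and 0.06). Every induced array lay above every uninduced one, and the 12 h mean at each dose lay above the 24 h mean. The uninduced arrays were all of 24 h, so dose and time cannot be told apart for the 12 h arrays. KRT7 itself averaged 10.96 at 12 h at both doses, against 11.35 at 0 ng for 24 h. After quantile normalization the 4 means of the difference between KRT5 and KRT7 were 0.53, 0.78, 0.22 and 0.51 in the same order. Between KRT14 and KRT18 the same quantity was 0.36 and 0.44 at 12 h and 0.16 and 0.33 at 24 h for 3 and 5 ng, with the uninduced arrays between -0.17 and 0.18. After quantile normalization it was 0.39 and 0.50 at 12 h and 0.26 and 0.45 at 24 h. The mean of the 3 basal keratins against the mean of KRT7, KRT8, KRT18 and KRT19 moved by 0.26 and 0.50 at 12 h and by 0.21 and 0.37 at 24 h (0.35 and 0.56, and 0.31 and 0.44, after quantile normalization). These pairs, and quantile normalization as another scale for them, were picked after the values had been seen.

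**Figure D4:**
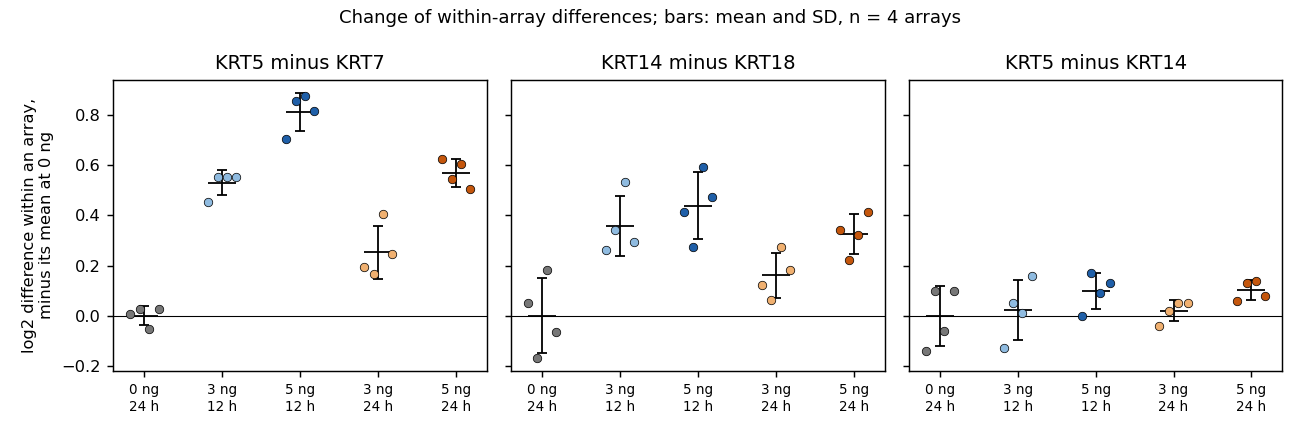
Log2 difference between 2 keratins on the same array, as deposited, minus the mean of that difference at 0 ng, for KRT5 and KRT7, KRT14 and KRT18, and KRT5 and KRT14. Each point is 1 array and bars are the mean and SD of 4 arrays. For KRT5 and KRT7 all 16 induced arrays, of 12 h or 24 h, lie above the 4 uninduced ones, which are all of 24 h. For KRT5 and KRT14 the group means stay between 0 and 0.10.

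Markers of other cell types were read beside these classes as deposited, where 4.52% of all genes were higher and 23.5% lower at 5 ng. Of the 5 measured myoepithelial or basal markers, 2 (ACTA2 and MYLK) were called higher at 5 ng and none lower, and the mean signal over the 5 ranged from 7.74 to 8.24 on the uninduced arrays and from 8.24 to 8.49 at 5 ng for 24 h. Of the 7 luminal markers other than keratins, 1 (EPCAM) was lower and none higher, with means of 6.30 to 6.78 and 6.0 to 6.52. Among markers of cornified epidermis, 1 of 4 was higher, with means of 5.67 to 6.21 and 6.18 to 6.70. Of the 7 mesenchymal markers 1 was lower (4.46 to 4.90 against 3.98 to 4.42), as was 1 of 6 immune and endothelial markers (2.93 to 3.33 against 2.28 to 3.08), and none of 3 adipocyte markers was called (2.54 to 2.94 against 1.73 to 2.89). After quantile normalization, where 20.6% of all genes were higher and 17.2% lower, the counts were 3 of 5 myoepithelial markers higher and 4 of 4 cornified markers higher (FLG 1.89, IVL 0.84, TGM1 0.40 and SPRR1B 0.37). Of the luminal markers, CD24 (0.75) and GATA3 (0.30) were then higher and EPCAM (-0.56) lower. On that scale 1 mesenchymal marker was lower, 1 immune marker was higher and 1 lower, and no adipocyte marker was called. In arrays of whole cultures, a change in the share of cells of a type and a change in RNA per cell cannot be told apart, and the part of either in the keratin results was not tested.

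The promoters of the called keratins were searched for the p53 half-site, the ten-letter element that p53 binds in pairs, since the study's subject is p53. Promoters of KRT34, KRT33A, KRT5 and KRT8 were in the RefSeq table, and the half-site stood in those of KRT5 and KRT8, starting 97 and 136 bases before the start. It stood in 7 of 33 keratin promoters (21.2%) and in 5.57% of all 35116, over the 250 bases before the start. As the element reads the same way on both strands, each match counts on both. The other keratins with a match were KRT2, KRT10, KRT20, KRT25 and KRT76, none of which was called in any comparison on the deposited values. An AP-1 site, TGANTCA on either strand, stood in 6.57% of all promoters and in 0 of the 33. The 40 bases around the match in KRT5 (chr12:52520467-52520506) and KRT8 (chr12:52926581-52926620), both on the minus strand of GRCh38.p14, are given with the match in capitals, as the keratins called higher that hold it. A match is a description of letters, and no binding was measured here.
KRT5: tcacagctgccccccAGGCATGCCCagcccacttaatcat
KRT8: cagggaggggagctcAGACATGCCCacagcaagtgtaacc

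KRT80, a type II keratin of differentiating epithelium, was the only keratin called lower at 24 h. Its signals were 8.14, 8.17, 8.42 and 8.73 at 0 ng, 7.61, 7.80, 7.42 and 7.51 at 3 ng, and 7.09, 7.29, 7.01 and 7.35 at 5 ng. The 3 groups did not overlap. KRT80 was 1.72-fold lower at 3 ng (-0.78, SE 0.18, limma adjusted p = 0.00284) and 2.27-fold lower at 5 ng (-1.18, SE 0.18, adjusted p = 2.81e-05). After quantile normalization these were -0.31 and -0.78, both still called (adjusted p = 0.0290 and 6.39e-06). Between 5 and 3 ng the difference of -0.40 was not called as deposited (limma adjusted p = 0.460) and was called after quantile normalization (-0.46, adjusted p = 0.00620). On that scale KRT34, KRT33A, KRT5 and KRT8 were higher and KRT80 lower between the doses, against 5.96% and 4.42% of all genes.

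None of the other 12 differentiation keratins was called in the 24 h comparisons as deposited. The keratins of the upper epidermis, KRT1 and KRT10, differed by -0.06 and -0.29 at 5 ng (limma adjusted p = 0.873 and 0.191), or by 0.20 and -0.03 after quantile normalization, where neither was called. KRT13 and KRT4, the pair of moist stratified linings, differed by -0.16 and -0.21 (adjusted p = 0.581 and 0.439), values that turned to 0.11 and 0.12 after quantile normalization. The lowest of the 12 was KRT9, a keratin of palm and sole, at -0.53 (adjusted p = 0.0767). KRT3, a keratin of the cornea, was called higher after quantile normalization at 3 ng (0.47, adjusted p = 0.0363) and not at 5 ng. The 3 keratins outside the classes, KRT23, KRT24 and KRT222, were all in the dimmest 30% of genes and were not called as deposited at 24 h, and KRT23 passed at 5 ng after quantile normalization (0.50, adjusted p = 0.0174).

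Read along the chromosomes as deposited, 5 of the 27 measured type I keratins on chromosome 17 were higher at 5 ng and none lower. On chromosome 12, where 21 keratins were measured, 2 were higher and 1 lower. Of all genes, 4.52% were higher and 23.5% lower. After quantile normalization 14 keratins on the 2 chromosomes together were higher and 1 lower, beside 20.6% and 17.2% of all genes. KRT14 and KRT16 are neighbours in the order of keratin genes, with KRT9, which was not called, on the near side of KRT14 and KRT17, which was not analysed here, beyond KRT16. KRT15 lies 3 keratin genes before KRT14, with KRT19 and KRT9 between them. KRT80 lies at the outer end of the chromosome 12 series, next to KRT7.

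**Figure D5:**
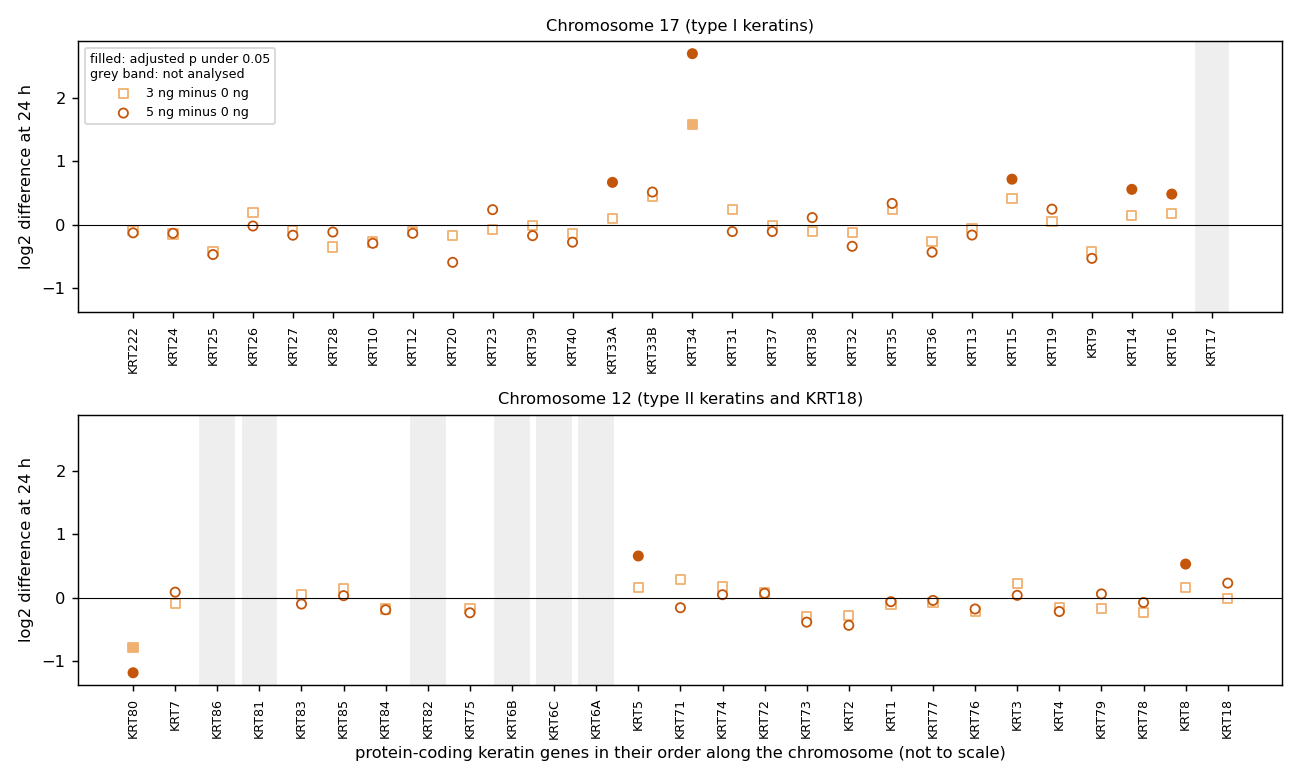
Log2 difference at 24 h as deposited of each keratin in its order along chromosome 17 (top) and chromosome 12 (bottom), for 3 ng (squares) and 5 ng (circles) against 0 ng; distances are not to scale. Filled symbols passed an adjusted p of 0.05 in limma and grey bands mark keratins not analysed here. The high values on chromosome 17 lie at KRT33A, KRT33B and KRT34 and at KRT15, KRT14 and KRT16, with differences of 0.48 to 2.70 at 5 ng.

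At 12 h the only comparison free of the difference in time is that of 5 with 3 ng. No keratin was called in it by limma, where 0.0217% of all genes were higher and 0 lower. At an unadjusted p under 0.05 there were 5 keratins, 2 higher and 3 lower. The share of all genes at that unadjusted cut was not counted, so this count has no background beside it. After quantile normalization KRT34 (0.84, adjusted p = 0.0308) and KRT5 (0.25, adjusted p = 0.0319) were called higher, against 2.32% of all genes higher and 0.424% lower. As deposited KRT34 differed by 0.71 (SE 0.25, adjusted p = 0.798), with 6.33, 6.47, 5.61 and 6.91 at 3 ng and 6.73, 6.80, 6.95 and 7.69 at 5 ng. The highest array of 3 ng lay above 2 of the arrays of 5 ng, so the groups overlapped.

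The 12 h arrays were also set against the uninduced ones, which were all of 24 h, so dose and time cannot be told apart there. At 3 ng for 12 h no keratin was called as deposited, where 1.57% of all genes were higher and 1.24% lower. At an unadjusted p under 0.05 stood, among others, KRT7, which differed by -0.39 (limma adjusted p = 0.103), and KRT34, which differed by 0.78 (limma adjusted p = 0.103). After quantile normalization KRT5, KRT14, KRT34 and the root sheath keratin KRT74 were called higher, by 0.35, 0.33, 0.78 and 0.57, against 6.61% of genes higher and 8.57% lower.

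At 5 ng for 12 h, KRT34 and KRT5 were higher and KRT7 and KRT80 lower than at 0 ng for 24 h, where 3.44% of all genes were higher and 11.5% lower. KRT34 rose by 1.49 (limma adjusted p = 0.000429) and KRT80 fell by 0.78 (adjusted p = 0.00493), with KRT80 arrays at 7.25, 7.73, 7.68 and 7.69. KRT5, at 11.98, 12.35, 12.16 and 12.18, rose by 0.42 (adjusted p = 0.0366), with its lowest array just below the highest uninduced one. KRT7, at 10.88, 11.10, 10.89 and 10.97, lay below all uninduced arrays and fell by 0.39 (adjusted p = 0.0418). The KRT5 call was lost under 7 of 16 alternatives, as far as 0.36 (adjusted p = 0.107) without array 2 of 5 ng. The KRT7 call was lost under 8, among them quantile normalization (-0.19, adjusted p = 0.0546) and the fit without array 4 of 0 ng (-0.31, adjusted p = 0.151). KRT14 and KRT15 differed by 0.33 and 0.56 (limma adjusted p = 0.0741 and 0.0817), with no overlap of the groups. After quantile normalization KRT5, KRT14, KRT15, KRT16, KRT8, KRT33A and KRT34 were higher and KRT80 lower, against 11.5% and 14.3% of genes.

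No uninduced array was of 12 h, so between 12 and 24 h the length of induction and the time in culture cannot be told apart at either dose. At 5 ng KRT34 was higher at 24 h than at 12 h by 1.21 (SE 0.25, limma adjusted p = 0.00481). KRT7 was higher by 0.48 (SE 0.13, adjusted p = 0.0323), where 0.424% of all genes were higher and 3.55% lower. In both genes the 24 h arrays all lay above the 12 h arrays. The KRT7 call was lost under 6 of 16 alternatives, each of which left out 1 array, and its adjusted p went up to 0.121 without array 2 of 24 h. KRT8 differed by 0.37 (limma adjusted p = 0.120) and KRT18 by 0.35 (adjusted p = 0.264). After quantile normalization 11 keratins were higher, among them all of KRT7 (0.53), KRT8 (0.35), KRT18 (0.33) and KRT19 (0.33), against 10.8% of genes higher and 7.60% lower.

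At 3 ng no keratin was called between 12 and 24 h, where 0.0706% of genes were higher and 4.36% lower. KRT34 differed by 0.81 (unadjusted p = 0.00425, limma adjusted p = 0.0746) and KRT7 by 0.30 (unadjusted p = 0.0263, adjusted p = 0.212). After quantile normalization KRT34 (1.12), KRT7 (0.47), KRT16 (0.34), KRT18 (0.32) and KRT8 (0.29) were higher, against 9.92% of genes higher and 6.06% lower. Whether the dose effect differed between 12 and 24 h was tested as an interaction. By limma 0 keratins were called, with none at an unadjusted p under 0.05, where 0 of all genes were called. For KRT34 the interaction was 0.40 (unadjusted p = 0.277) and for KRT5 0.21 (unadjusted p = 0.272). After quantile normalization no keratin was called either, among 0.0706% of all genes.

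Keratin filaments are anchored at desmosomes between cells and at hemidesmosomes to the basement membrane, so the genes of both were read beside them. Of 14 desmosome and plakin genes, 5 rose at 5 ng and none fell as deposited, beside 4.52% and 23.5% of all genes. They were the basal-layer cadherins DSG3 (1.77) and DSC3 (0.82), the plaque proteins PKP1 (0.95) and JUP (0.38), and PERP (0.72), a tetraspan protein of desmosomes (limma adjusted p from 5.41e-08 to 0.0236). At 3 ng DSG3 alone rose (1.03, adjusted p = 0.000134). After quantile normalization 9 of the 14 were higher at each dose, beside 15.4% of all genes at 3 ng and 20.6% at 5 ng. Between 5 and 3 ng DSG3, DSC3, PKP1 and PERP were called higher as deposited, beside 1.79% of all genes. The median of the 14 was 0.24 at 5 ng, beside -0.24 for all genes (0.55 beside 0.07 after quantile normalization).

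Of 6 measured hemidesmosome and laminin-332 genes, 1 rose and 1 fell at 5 ng as deposited, beside 4.52% and 23.5% of all genes. LAMB3, a laminin-332 chain, rose (0.52, limma adjusted p = 0.00499). ITGB4, the integrin chain that binds keratin through plectin, fell (-0.55, adjusted p = 0.00336). The fall of ITGB4 was not called after quantile normalization (-0.22, adjusted p = 0.209). On that scale 2 of the 6 were higher and none lower, beside 20.6% and 17.2% of all genes. Among the other 15 intermediate filament genes, 2 rose and 3 fell at 5 ng as deposited, beside the same 4.52% and 23.5% of all genes. The neurofilament genes NEFM (2.25) and NEFL (1.74) rose, and the nuclear lamin genes LMNB1 (-4.22), LMNB2 (-1.93) and LMNA (-0.34) fell. LMNA turned to 0.03 after quantile normalization, where 5 of the 15 were higher and LMNB1 and LMNB2 lower, beside 20.6% and 17.2% of all genes. NEFM and NEFL were also higher at 3 ng (0.92 and 1.11, limma adjusted p = 0.00251 and 0.00203), and the mesenchymal filament gene VIM was not called (-0.38 at 5 ng, adjusted p = 0.271).

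Of 17 measured transcription factors of epithelial keratin programmes, 3 rose and 3 fell at 5 ng as deposited, beside 4.52% and 23.5% of all genes. TP63, on this list and on that of the myoepithelial markers, had no cluster with a single symbol and was not analysed here. ZNF750 (1.65), GRHL3 (1.17) and OVOL1 (0.64) rose (limma adjusted p = 1.27e-06, 2.34e-05 and 0.00330). KLF4 (-0.82), OVOL2 (-0.59) and GRHL1 (-0.43) fell (adjusted p = 0.00154, 0.0177 and 0.0463). After quantile normalization 10 were higher and 1, KLF4, lower (-0.46), beside 20.6% and 17.2% of all genes, and OVOL2 (-0.24, limma adjusted p = 0.0719) and GRHL1 (-0.17, adjusted p = 0.352) were no longer called. At 3 ng ZNF750 was higher (0.83) and KLF4 (-0.64) and NOTCH1 (-0.46) were lower as deposited, and neither fall was called after quantile normalization (KLF4 -0.30, limma adjusted p = 0.0630, and NOTCH1 0.00). These lists were chosen with earlier results of these data known.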

How the data were processed

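Biotin-labelled total RNA was hybridised to 20 Affymetrix whole-transcript arrays, 4 in each of 5 groups. The authors deposited 1 table of log2 values for 33297 transcript clusters. The submitters' processing notes name Affymetrix Power Tools, GCOS, GCRMA and limma, with no versions, roles or order, and the genome build and the scaling between arrays are not given in the sources used here. Per the platform's probe-to-gene table, 19460 clusters had 1 symbol, 1754 had several and 12083 were not listed, and the brightest single-symbol cluster stood for each of 18417 genes. KRT39 and KRT40 each had a pair of identical clusters.

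Groups came from the sample labels. limma 3.58.1 in R 4.3.3 fitted 1 mean per group to all 20 arrays (15 residual degrees of freedom) on the deposited values, and the contrasts were tested two-sided with Benjamini-Hochberg adjustment over all genes. The same fit was run after quantile normalization of all arrays. The code was tested on simulated data. Arrays of a group correlated at 0.990 to 0.994, and no pair of arrays was a copy. The number of arrays limits the precision.

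All members of the basal, activation and luminal classes were named, as was every other keratin called in a comparison as deposited, the highest and lowest of the rest, and up to 4 called genes of each partner list. Some of the genes added to this rule are said to be so where they are described, or follow from a count of 5 or fewer. Others were added without such a remark, among them KRT1, KRT4, KRT10, KRT13 and VIM. The keratins, classes and lists were chosen with earlier results of these data known. The alternatives were the replicate number as a block, only the groups compared, quantile normalization, centring on array medians, leaving out the dimmest 30% of genes, the mean of a gene's clusters, trend and robust options, array weights and leaving out each array in turn.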

Additional observations from a re-analysis of the deposited data

Results flagged for a closer look

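In groups of 4 arrays, the gap of the highest or lowest array to its neighbour was set against Dixon's critical value. Of 65 groups checked, 4 had an array past it, and chance gives about 1 in 20. KRT15 at 3 ng for 12 h had a lowest array (replicate 3) at 8.44, with the nearest at 9.09. KRT19 at 5 ng for 24 h had a lowest array (replicate 2) at 5.14, with the nearest at 5.67. KRT5 at 0 ng had a highest array (replicate 4) at 12.00, with the nearest at 11.70. KRT80 at 5 ng for 12 h had a lowest array (replicate 1) at 7.25, with the nearest at 7.68. Without the stray arrays, the calls of KRT5 at 5 ng for 24 h and of KRT80 at 5 ng for 12 h against 0 ng remained past the threshold.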

How the results depend on the processing

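KRT34 and KRT80 against 0 ng at 24 h, and KRT5, KRT14 and KRT8 at 5 ng, kept their direction and stayed past the threshold under all 16 alternatives; the largest adjusted p among them was 0.0290. The count of keratins called moved with scaling and with array weights. Against 2 keratins at 3 ng and 8 at 5 ng (24 h against 0 ng) there were 14 and 15 after quantile normalization and 6 and 13 with centred arrays. For the other comparisons quantile normalization gave 5 (5 against 3 ng, 24 h), 2 (the same, 12 h), 4 and 8 (3 and 5 ng at 12 h against 0 ng), and 5 and 11 (24 against 12 h at 3 and 5 ng). Centring gave 2, 1 and 5 for the first 3 of these and 2 for 24 against 12 h at 3 ng. Array weights, whose estimation stopped before it converged, gave 5 at 3 ng, 5 and 18 for 5 against 3 ng at 24 and 12 h, 7 and 16 for the 12 h doses, 6 and 18 for the times and 5 for the interaction. With the groups compared alone, the count was 2 for 5 against 3 ng at 24 h and 2 for 5 ng at 12 h. Without the dimmest 30% of genes it was 2 for 5 against 3 ng at 24 h and 1 for 3 ng at 12 h and for 24 against 12 h at 3 ng, and trend and robust options gave 3, 3 and 1 for these. Leaving out 1 array gave 0 to 3 for 5 against 3 ng at 24 h, 0 to 2 and 2 to 5 for 3 and 5 ng at 12 h, and 0 to 1 and 1 to 2 for the times. Signs turned for KRT18, KRT20 and KRT7 at 3 ng (0.262, 0.051 and 0.292 after quantile normalization, and 0.21, 0.05 and 0.137 centred). With 1 array left out, KRT18 ran from -0.091 to 0.059, KRT19 from -0.066 to 0.134 and KRT20 from -0.351 to 0.046 at 3 ng, and KRT33B from -0.045 to 0.318 between doses. The cause was not tested. Same-numbered arrays correlated from -0.18 to 0.50 in their deviations, 13 of 40 pairs above 0.1, so the numbers were not taken to pair the arrays; with a replicate block 1 keratin was called at 3 ng for 12 h and 1 for 24 against 12 h at 3 ng, and 9 at 5 ng for 24 h. Dim keratins (18 of 48) limit what these arrays can show.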
